A study of Mus musculus with 4 samples.

Results

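The genes described here encode the T cell receptor complex and the enzymes, adaptors and surface molecules that act next to it. They were chosen by name: 33 gene symbols were listed, and every probe set whose annotation gives one of these symbols and no other gene was taken. Probe sets of this kind existed for 29 of the 33 genes, out of 8251 genes on the array, and numbered 43. For Lck, Slamf1, Cblb and Dgkz no value was analysed here. One further gene, Grap2, was at background and under the signal filter, and this filter left 28 members for the test.

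RNA came from double-positive thymocytes, the immature T cells that carry both CD4 and CD8. Female C3H/HeN mice of 4 weeks were the source, and sorting was with microbeads. In the dexamethasone group the cells spent 3 h with 1e-07 M of this synthetic glucocorticoid, given in PBS. In the medium group they spent 3 h in medium with PBS alone. Both groups were cultured in 3 ml at 5e+06 cells per ml. Each group had 2 arrays, described by the submitters as technical replicate extracts, so that p-values measure the spread between extracts and not between mice. How many mice were used, and whether thymi were pooled, is not given in the sources used here.

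The T cell receptor has no enzyme of its own. When it binds a peptide on an MHC molecule, the Src-family kinases Lck and Fyn phosphorylate the CD3 and zeta chains, Zap70 docks there and phosphorylates the adaptors Lat and Lcp2, and these assemble the enzymes that raise calcium and activate Ras and protein kinase C. Phosphatases, the kinase Csk, ubiquitin ligases and inhibitory receptors hold this cascade back. In double-positive thymocytes its strength decides between survival, maturation and deletion, and glucocorticoids are a separate, strong signal for death in the same cells.

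Markers of double-positive thymocytes were read beside those of other cells. All 9 measured markers of double-positive thymocytes were above background on every array, the lowest at a signal of 47.0, with summed signals of 12377 and 13482 with dexamethasone and 12144 and 12479 in medium. Among them Satb1 rose, and Cd8b1 and Ptcra fell. Of 31 measured markers of other cells, 16 were at background on all arrays. Markers of double-negative thymocytes summed to at most 19.3 with dexamethasone and 21.5 in medium, and those of thymic epithelium to at most 12.7 with dexamethasone and 6.90 in medium. Macrophage and dendritic cell markers summed to 66.1 and 83.5 with dexamethasone and 86.1 and 101.6 in medium, NK cell markers to 71.8 and 85.5 with dexamethasone and 92.4 and 100.9 in medium, and red cell markers to 106.2 and 114.9 with dexamethasone and 96.3 and 105.7 in medium. The 7 B cell markers summed to 2210 and 2244 with dexamethasone and to 1791 and 1794 in medium, a gap carried by Ighm. The other 6, a sum chosen after the values were seen, came to 461 and 492 with dexamethasone and to 512 and 534 in medium. Of these Cd74 was lower, at 329.9 and 322.1 with dexamethasone against 378.7 and 397.7 in medium. Cd79b and Ms4a1 had both dexamethasone arrays above both medium arrays, and for Cd79a, Blk and Cd22 the groups overlapped. None of these markers passed. The 5 markers of mature single-positive thymocytes summed to 365 and 382 with dexamethasone and to 322 and 355 in medium. Among them Il7r alone rose, at 146.8 and 139.3 with dexamethasone against 49.4 and 58.0 in medium. Itgb7 was lower, at 125.3 and 126.2 with dexamethasone against 167.9 and 161.7 in medium, but did not pass. For Klf2, Ccr7 and S1pr1 the groups overlapped. The part of these lists in the results was not tested, and in sorted bulk cells fewer cells of a kind and less RNA per cell cannot be told apart. For actin, the signal at the 3′ end over that at the 5′ end, which rises as RNA breaks down, was 1.40 and 1.24 with dexamethasone and 1.15 and 1.06 in medium. The same ratio for Gapdh overlapped between the groups, at 0.904 and 0.823 with dexamethasone and 0.838 and 0.845 in medium. The part of RNA integrity in the results was not tested either.

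After 3 h with dexamethasone 4 of the 28 tested genes changed, and for the others no change passed the test. The inhibitors Ptpn22 and Ctla4 rose 1.78-fold and 1.88-fold, the adhesion molecule Cd2 rose 1.38-fold, and the kinase gene Fyn fell to 0.699 of its level in medium. A gene is said to have risen or fallen where limma's p-value, adjusted by Benjamini-Hochberg over all 5582 genes tested, was under 0.05. Rises made up 3 of 28 members, beside 1.88% of all genes tested, and falls made up 1 of 28, beside 2.02%. In either direction 4 of 28 passed, beside 3.91% of all genes tested. A fit without the variance trend, which ties variance to signal, gave 0 rises and 0 falls, beside 17 and 2 of all genes. The median log2 difference of the 28, dexamethasone minus medium, was -0.03, and over all genes it was 0.00. The median size of the difference, signs ignored, was 0.17 for the members and 0.16 for all genes. The lowest signal of any tested member on any array was 31.8, more than the background of 14, so no member was tested on the strength of a single group.

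**Figure D1:**
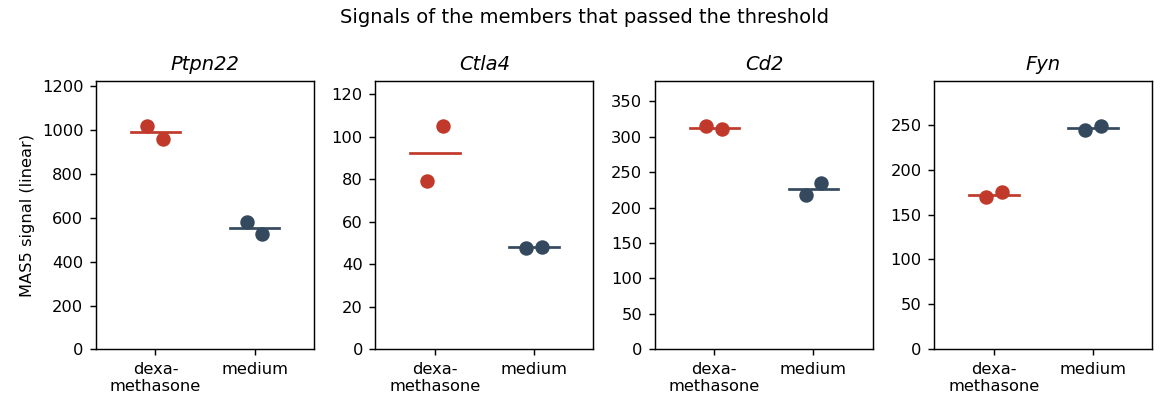
MAS5 signal on a linear scale (vertical axes, starting at 0) of the 4 members that passed the threshold. Points are arrays and lines are means of 2 arrays, with dexamethasone left of medium in each panel; in no panel do the groups overlap.

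Ptpn22 encodes a tyrosine phosphatase that removes activating phosphates from Lck and Zap70. Its signal was 1019.6 and 959.5 on the dexamethasone arrays, against 582.0 and 528.0 on the medium arrays. The groups were far apart, and the lower dexamethasone array stood well above the higher medium array. The log2 difference was 0.83 ± 0.08 (SE), with a limma adjusted p of 0.00402, the smallest among the members. Among all genes tested it held place 87 in the order of rises. A second Ptpn22 probe set read 1.30 or less on every array and carries no information.

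Ctla4 encodes an inhibitory receptor that competes with Cd28 for the same ligands. Its signal was 79.2 and 105.2 with dexamethasone, against 47.9 and 48.3 in medium. Both dexamethasone arrays were higher, but they differed from each other by 0.41 on the log2 scale while the medium arrays nearly coincided. The log2 difference was 0.91 ± 0.16 (SE), the largest among the members, with a limma adjusted p of 0.0352. Cd28, the costimulatory receptor encoded by the neighbouring gene on chromosome 1, read 483.3 and 379.5 with dexamethasone and 404.0 and 411.2 in medium. Its groups overlapped, with a log2 difference of 0.07 ± 0.12 (SE) and a 95% interval from -0.21 to 0.35.

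Cd2 encodes an adhesion molecule that binds Cd48 on the partner cell in mice and lowers the threshold of receptor signalling. Its signal was 315.3 and 310.4 with dexamethasone, against 217.5 and 235.2 in medium, with no overlap. The log2 difference was 0.47 ± 0.08 (SE), with a limma adjusted p of 0.0290. Centred on array medians the difference was about as large, at 0.43, but did not pass (limma adjusted p = 0.0555), and scaled to the hybridization controls it was 0.01.

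Fyn encodes the Src-family kinase that acts beside Lck, and it was the one member that fell. Its signal was 169.6 and 174.7 with dexamethasone, against 244.5 and 248.7 in medium. Arrays of a group lay within 0.04 of each other on the log2 scale with dexamethasone and within 0.02 in medium, so the gap between groups was many times the gap within them. The log2 difference was -0.52 ± 0.08 (SE), with a limma adjusted p of 0.0217. The calls for Fyn, Cd2 and Ctla4 needed all 4 arrays and were lost when any array was left out. That for Ptpn22 was lost without the second medium array (adjusted p = 0.0556).

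The promoters of Ptpn22, Ctla4 and Fyn, 3 of the 4 changed genes, are shown because the glucocorticoid receptor, when bound to dexamethasone, acts on DNA directly. The windows run from 250 bases before to 50 bases after the start, are taken from RefSeq on build GRCm38.p6 (strain C57BL/6J, not the strain of the mice), and are written 5′ to 3′ on the plus strand. Capitals mark the receptor's core element AGAACA on either strand. The windows are chr3:103860027-103860326 for Ptpn22, chr1:60908775-60909074 for Ctla4 and chr10:39369549-39369848 for Fyn.
Ptpn22: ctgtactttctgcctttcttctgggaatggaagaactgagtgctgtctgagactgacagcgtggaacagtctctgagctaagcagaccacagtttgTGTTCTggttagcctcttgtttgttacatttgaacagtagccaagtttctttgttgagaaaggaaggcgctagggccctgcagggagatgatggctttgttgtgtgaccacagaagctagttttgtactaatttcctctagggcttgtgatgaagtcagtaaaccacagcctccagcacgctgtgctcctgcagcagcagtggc
Ctla4: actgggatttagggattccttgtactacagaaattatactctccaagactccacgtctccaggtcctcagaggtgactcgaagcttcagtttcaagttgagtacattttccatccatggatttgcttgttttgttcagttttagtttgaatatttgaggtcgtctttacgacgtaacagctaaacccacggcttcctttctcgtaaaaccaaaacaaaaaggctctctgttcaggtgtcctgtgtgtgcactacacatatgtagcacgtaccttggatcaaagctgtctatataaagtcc
Fyn: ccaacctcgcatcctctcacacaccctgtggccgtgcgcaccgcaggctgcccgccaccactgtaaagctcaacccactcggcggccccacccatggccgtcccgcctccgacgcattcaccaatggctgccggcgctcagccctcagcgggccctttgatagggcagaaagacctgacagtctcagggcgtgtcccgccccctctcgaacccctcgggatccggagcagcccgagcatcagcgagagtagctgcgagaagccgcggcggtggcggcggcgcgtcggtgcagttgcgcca

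The core element stood once in this Ptpn22 window, 154 bases before the start, written there as its complement TGTTCT. It was in neither the Ctla4 nor the Fyn window. A second annotated start of Ptpn22 had none either. Of the 31 windows annotated for 23 of the tested members, 9 held the element, or 29.0%, beside 19.0% of 32851 windows of all genes and 12.5% of the 5855 windows of genes tested. The others with a match belonged to Cd247, Txk, Prkcd, Lcp2, Ptprc and Ptpn6, none of which passed. The Ptprc windows overlap and their matches fall on the same bases, so the 9 windows hold fewer separate sites. The longer inverted repeat GNACANNNTGTNC, in which both strands carry the core's inner bases, was in 0 of the 31 windows. It was in 0.475% of all windows and 0.239% of the windows of genes tested. At such low shares, 0 of 31 says nothing about the members. A match is a run of letters and not a measured binding site.

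No gene of a receptor chain passed the test. Cd3g, Cd3d and Cd3e, which lie side by side on chromosome 9 and encode the CD3 subunits, had log2 differences of -0.17 ± 0.08, -0.10 ± 0.08 and -0.06 ± 0.06 (SE). Cd3e read 1256.4 and 1206.1 with dexamethasone, against 1294.4 and 1271.6 in medium. Cd247, which encodes the zeta chain with most of the complex's signalling motifs, read 634.4 and 614.5 with dexamethasone and 522.9 and 589.0 in medium, a log2 difference of 0.17 ± 0.08 (SE). The 95% intervals of the 4 reach no further than -0.36 on the lower side and 0.36 on the higher.

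Of the 6 kinase genes measured, 5 did not pass. Zap70, the kinase that docks on the phosphorylated chains, read 1408.3 and 1318.1 with dexamethasone, against 1302.7 and 1363.1 in medium on its brightest probe set, with a log2 difference of 0.03 ± 0.07 (SE). Its dimmest probe set went lower, at 42.8 and 46.8 with dexamethasone against 90.1 and 70.1 in medium, a log2 difference of -0.81 that did not pass when every probe set was tested (adjusted p = 0.0530). On the middle probe set the groups overlapped, at 589.3 and 737.1 with dexamethasone against 710.0 and 746.1 in medium, a log2 difference of -0.14. The dimmest Zap70 probe set therefore departs from the brighter ones. Tec and Txk, neighbouring genes on chromosome 5 for related kinases that activate phospholipase C gamma, differed by 0.06 ± 0.07 and 0.04 ± 0.09 (SE). Prkcq, the protein kinase C isoform of the T cell synapse, read 214.2 and 243.6 with dexamethasone, against 253.2 and 255.6 in medium, a difference of -0.15 ± 0.09 (SE). Prkcd, a protein kinase C isoform placed with neither activators nor inhibitors, differed by 0.02 ± 0.07 (SE).

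**Figure D2:**
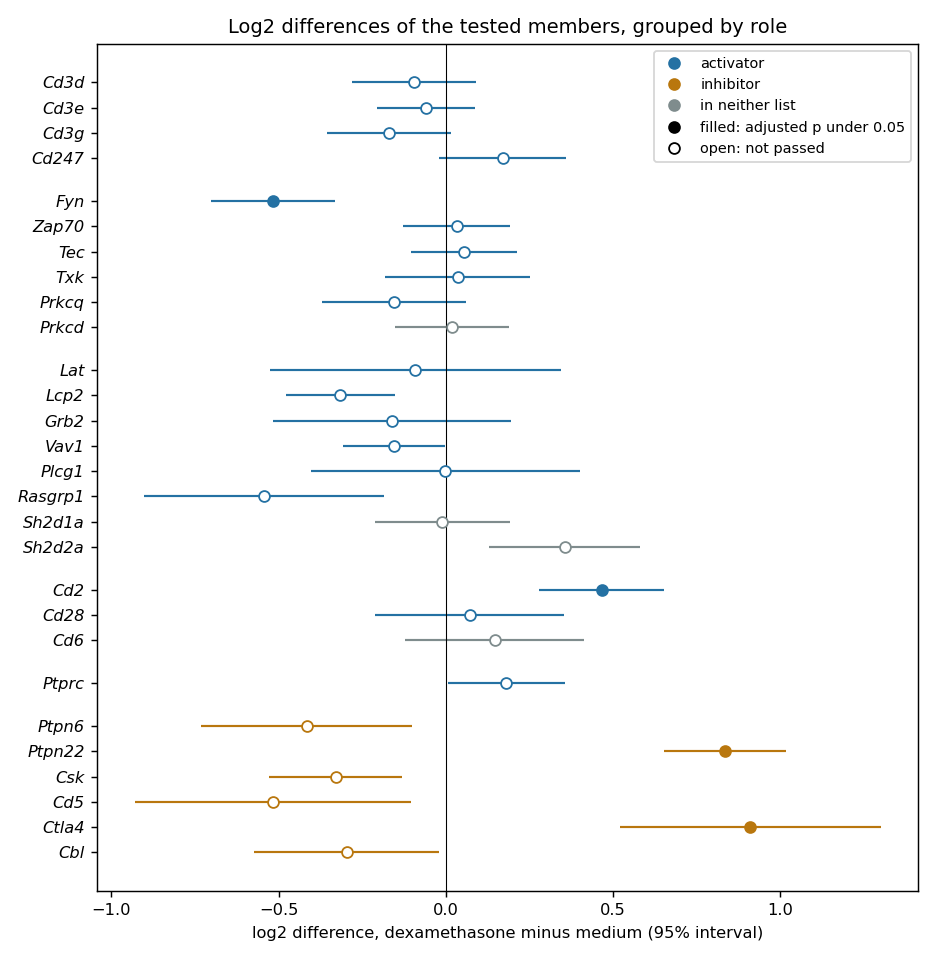
Log2 difference, dexamethasone minus medium, of the 28 tested members with its 95% interval (horizontal axis), grouped by role from receptor chains at the top to inhibitors at the bottom. Filled points passed the threshold: Ptpn22, Ctla4 and Cd2 to the right of 0 and Fyn to the left.

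Among adaptors and effectors 7 of 8 tested had a negative difference, beside 2785 of 5582 over all genes, and 0 passed the limma threshold. The 7 include Plcg1 and Sh2d1a, at -0.00 and -0.01, which show no direction, and Lat and Grb2, whose groups overlapped. An unadjusted p under 0.05 was found for 4, beside 19.9% of all genes tested; of these Lcp2, Rasgrp1 and Vav1 were lower with dexamethasone and Sh2d2a was higher. Lcp2, the adaptor SLP-76 that Zap70 phosphorylates, came closest. It read 890.5 and 959.3 with dexamethasone, against 1131.0 and 1169.7 in medium, with no overlap and a log2 difference of -0.32 ± 0.07 (SE, limma adjusted p = 0.0601). Rasgrp1, which activates Ras in answer to diacylglycerol, read 41.4 and 50.6 with dexamethasone, against 67.6 and 66.8 in medium. At -0.54 ± 0.15 (SE) this was the most negative difference among the members, but its adjusted p was 0.110.

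Vav1 differed by -0.15 ± 0.06 (SE) on its brightest probe set, by -0.19 on the next and by 0.44 on the dimmest, whose signals, at most 25.8, were near background. Grb2, the adaptor that recruits Sos to Lat, and Lat itself had differences of -0.16 ± 0.15 and -0.09 ± 0.18 (SE), with overlapping groups. For Plcg1, the phospholipase C gamma gene, the difference was -0.00 ± 0.17 (SE). Grap2, which links Lat to Lcp2, read 5.60 and 2.70 with dexamethasone and 5.70 and 11.1 in medium, all at background. Sh2d2a, an adaptor that binds Lck, was the one gene here with a positive difference, at 385.9 and 329.3 with dexamethasone, against 280.1 and 276.7 in medium (0.36 ± 0.09 SE, limma adjusted p = 0.0993). Sh2d1a, the adaptor of SLAM-family receptors, differed by -0.01 ± 0.08 (SE).

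Among the surface molecules, Cd6 gave opposite readings. This receptor gene, next to Cd5 on chromosome 19, read 248.5 and 306.0 with dexamethasone, against 253.8 and 244.4 in medium on its brighter probe set. On the dimmer one it read 67.9 and 103.8 with dexamethasone, against 175.1 and 139.6 in medium. The log2 differences were 0.15 and -0.89, neither of which passed when every probe set was tested (adjusted p = 0.528 and 0.0851), so no direction can be given for Cd6. Ptprc, which encodes the phosphatase CD45 that keeps Lck ready for activation, read 642.9 and 624.4 with dexamethasone, against 584.5 and 533.9 in medium. Its difference was 0.18 ± 0.07 (SE, limma adjusted p = 0.234) and 0.18 on a second probe set.

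**Figure D3:**
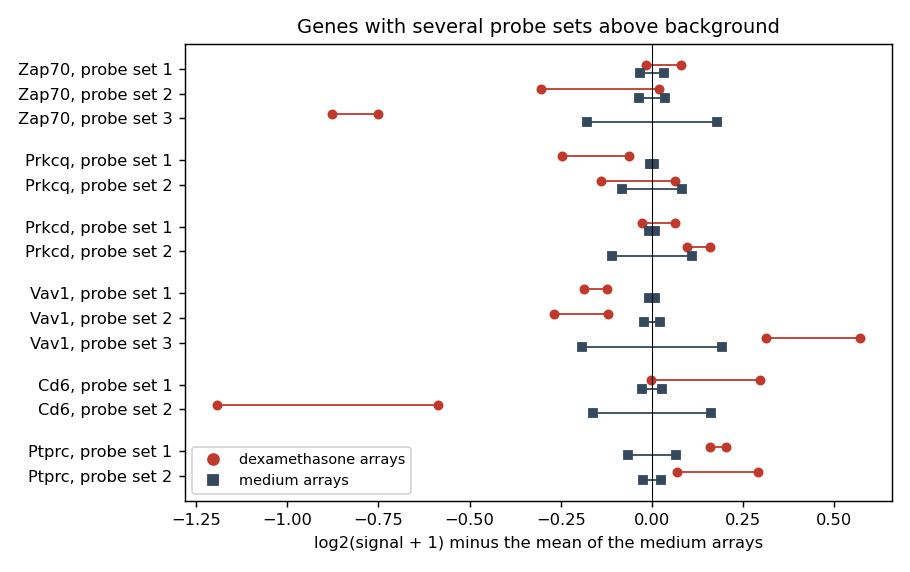
Genes with several probe sets above background: each array's log2(signal + 1) minus the mean of the medium arrays (horizontal axis), with probe sets numbered from the brightest and the dexamethasone arrays drawn above the medium arrays. For Zap70, Vav1 and Cd6 the dimmest probe set lies apart from the brightest, while both Ptprc probe sets lie to the right.

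The inhibitors split. Of 8 listed, 6 were tested: Ptpn22 and Ctla4 rose, and Ptpn6, Csk, Cd5 and Cbl had negative differences that did not pass. In all 6 the dexamethasone arrays did not overlap the medium arrays, beside 50.5% of all genes tested, and all 6 had an unadjusted p under 0.05, beside 19.9%. The list was drawn up with earlier results of these data known, so these counts describe it and do not test it. Ptpn6, the phosphatase SHP-1, read 144.1 and 155.3 with dexamethasone, against 226.3 and 176.7 in medium, a difference of -0.42 ± 0.13 (SE, limma adjusted p = 0.152). Csk encodes the kinase that keeps Lck and Fyn inactive and whose protein is a known partner of the Ptpn22 phosphatase. It read 311.6 and 349.6 with dexamethasone, against 423.5 and 406.8 in medium, so that it lay lower while Ptpn22 rose (-0.33 ± 0.08 SE, limma adjusted p = 0.0875). A second Csk probe set, near background, read 14.8 and 13.2 with dexamethasone and 7.1 and 13.5 in medium. With the mean of all probe sets the log2 difference of Csk was 0.07.

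Cd5, a surface receptor that tunes down the response of thymocytes, read 47.4 and 36.8 with dexamethasone, against 56.9 and 63.7 in medium (-0.52 ± 0.17 SE, limma adjusted p = 0.167). Cbl, a ubiquitin ligase that marks activated kinases for degradation, read 80.3 and 72.4 with dexamethasone, against 90.8 and 97.0 in medium (-0.30 ± 0.11 SE, limma adjusted p = 0.219). None of these 4 passed, although no array of a group overlapped the other group.

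**Figure D4:**
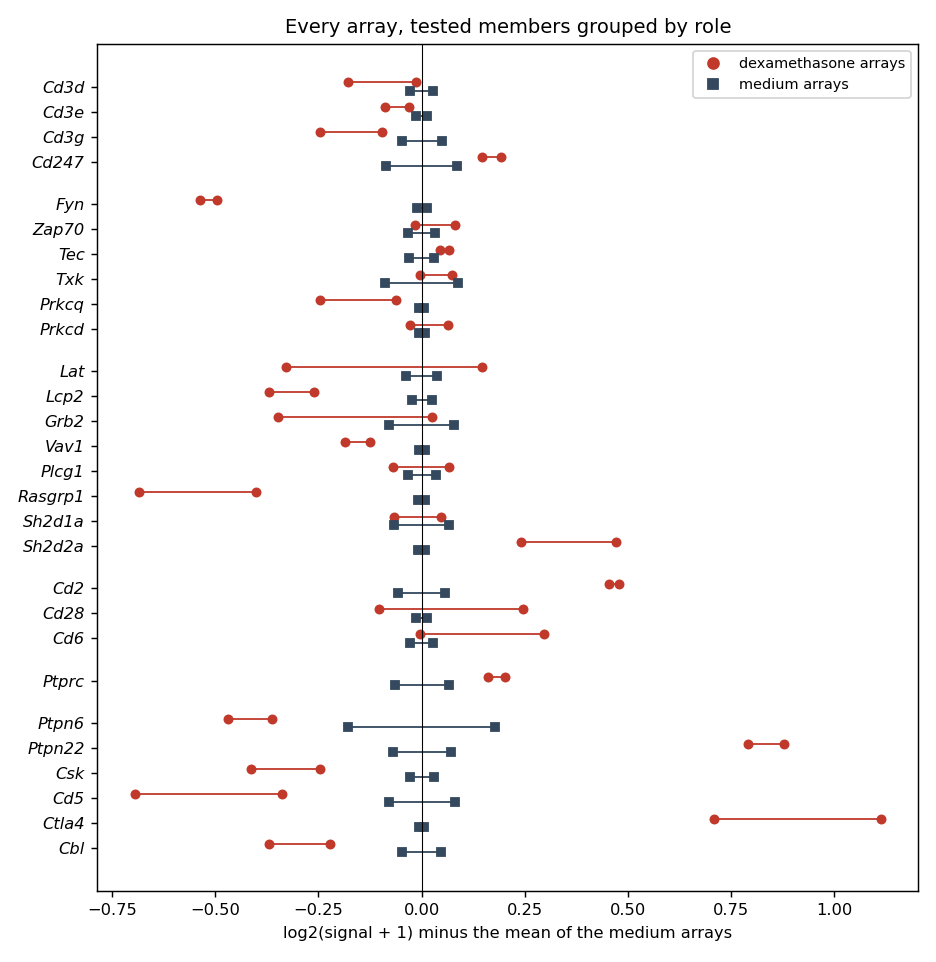
Log2(signal + 1) of each array minus the mean of the medium arrays (horizontal axis) for the 28 tested members, grouped by role, with the dexamethasone arrays (circles) above the medium arrays (squares). All 6 inhibitors at the bottom have groups that do not overlap, 2 to the right and 4 to the left.

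Set side by side, the 18 tested activators had a median log2 difference of -0.08 and the 6 tested inhibitors one of -0.31, beside 0.00 over all genes. The pooled SD of these medians between arrays of a group was 0.04 for activators and 0.03 for inhibitors. This is a spread between extracts and does not measure the spread among genes. With the mean of all probe sets the inhibitors' median was -0.11. Of the 18 activators, 1 rose, beside 1.88% of all genes, 1 fell, beside 2.02%, and 11 had a negative difference, beside 2785 of 5582. Without the second dexamethasone array their median was 0.0055. The inhibitors' differences ran from -0.52 to 0.91 and the 2 that rose held the top places among all members. The median size of the difference, signs ignored, was 0.47 for the inhibitors and 0.15 for the activators, and this contrast was described and not tested. Of the 28 members, 7 had both dexamethasone arrays above both medium arrays, beside 24.7% of all genes, and 11 had them below, beside 25.7%.

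Further genes of the pathway gave 1 change among 35 tested, of 65 listed, beside 3.91% of all genes tested. Dgka, a diacylglycerol kinase that removes the messenger to which Rasgrp1 and protein kinase C respond, fell. It read 653.2 and 694.8 with dexamethasone, against 897.3 and 916.8 in medium, a log2 difference of -0.43 ± 0.07 (SE, limma adjusted p = 0.0240). The median over the 35 was -0.03, and 12 had a positive and 23 a negative difference, beside 2797 and 2785 over all genes.

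All directions are relative to the authors' scaling, which gives the arrays the same trimmed mean. The 9 hybridization controls, bacterial and phage RNAs added before hybridization, were 1.37-fold higher on the dexamethasone arrays, and scaling to them moves the median of all genes to -0.45. On that scale Ptpn22 alone rose, at 0.38, beside 0.77% of all genes, and 16 of the 28 members fell, beside 44.8%. On the same scale Fyn was at -0.97, and Ctla4 was at 0.46 but not past the threshold. These values still contain the shift of all genes and are not distances from the typical gene.

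**Figure D5:**
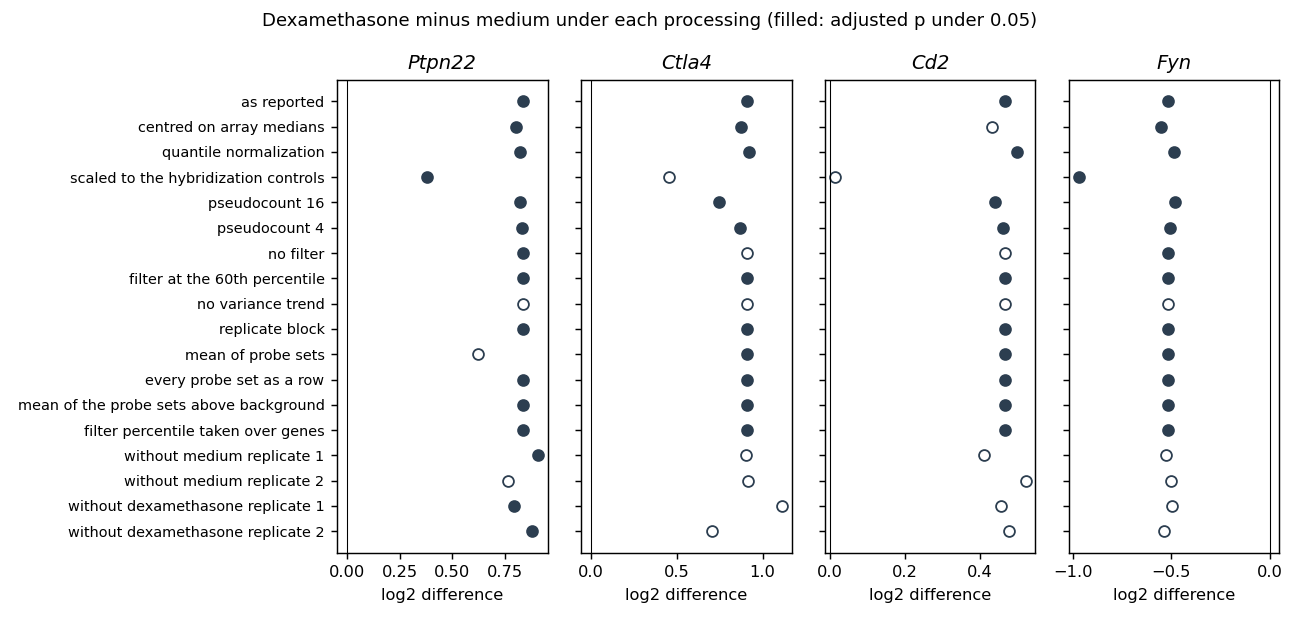
Log2 difference, dexamethasone minus medium, of Ptpn22, Ctla4, Cd2 and Fyn (horizontal axes) as reported and under 17 alternatives (vertical axis). Filled points passed the threshold. Every point for Ptpn22, Ctla4 and Cd2 lies above 0 and every point for Fyn below 0. Cd2 is at 0.01 when scaled to the hybridization controls. A change of filter, variance trend or block alone cannot move a point along the axis.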

How the data were processed

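MAS5 made the deposited linear intensities, per the submitters' processing notes, with no version or settings given in the sources used here. MAS5 condenses the probes of a probe set into a signal. The 4 arrays had trimmed means (2% from each end) of 100.06 to 100.07. Of 12488 probe sets, 66 were controls, 10833 named 1 gene, 396 several and 1193 none in the platform annotation; gene IDs tied 10817 of those naming 1 gene to the RefSeq table.

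Signals were used as log2(signal + 1), so differences of dim genes are understated. A gene's probe set was the brightest over all arrays, and genes at or under the 40th percentile of the probe sets' mean log2 signal were left out, which kept 5582. This percentile was first taken over genes, which kept 4950, and the reading over non-control probe sets was adopted after the results of the first had been seen; both call the same 4 members. The groups were compared with lmFit and eBayes with a trend (limma 3.58.1, R 4.3.3), two-sided. The code was tested on simulated data. Background (14) is the highest signal among 19 control probe sets for Bacillus subtilis and yeast sequences. The number of arrays limits the precision. Every member is named, and other pathway genes where they passed. Members, roles, lists and alternatives were chosen with earlier results of these data known. The alternatives were other scalings, pseudocounts, filters and probe set rules, no variance trend, a replicate block and leaving out each array. Promoter windows are RefSeq's.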

Additional observations from a re-analysis of the deposited data

How the results depend on the processing

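Over 17 alternatives, Ptpn22 passed in 14, Fyn in 12, Ctla4 in 10 and Cd2 in 9, each with its reported direction in all 17; adjusted p ran from 0.00111 to 0.134, 7.04e-05 to 0.163, 0.0184 to 0.202 and 0.0201 to 0.960. Against 3 members that rose and 1 that fell, leaving out 1 array gave 0 to 1 rises (0 without the second medium array) and 0 falls. Of the 17 alternatives, those that change only the filter, the variance trend or the block cannot alter a log2 difference, so direction was fixed there. The same holds for the probe set rules in Fyn, Cd2 and Ctla4, each with 1 probe set. Without the variance trend there were 0 rises and 0 falls, beside 17 and 2 of all genes. With no filter there was 1 rise. Scaled to the hybridization controls there was 1 rise and there were 16 falls, the medians were -0.53 for activators and -0.77 for inhibitors, and Zap70, at 0.03 as reported, was at -0.42 and passed. There were 2 falls, Fyn and Lcp2, after quantile normalization, with the filter at the 60th percentile and with a replicate block. The replicate numbers are not shown to pair the arrays: the deviations of equal numbers correlated at 0.07, from 2 pairs. With the mean of all probe sets the inhibitors' median was -0.11 and Ptpn22 did not pass (adjusted p = 0.134). The next alternatives were chosen after seeing the data. The mean of the probe sets above background was added once Ptpn22 had lost its call, and there it passed. With the filter's percentile over genes, the reading run first, 4950 genes were tested, 116 rose and 125 fell, and the same 4 members passed. Changes of sign in members that passed under neither setting are not given as reversals. Leaving out 1 array, the activators' median ran from -0.092 to 0.0055 and the inhibitors' from -0.30 to -0.27. Dim members such as Plcg1, Lat and Grb2 have intervals too wide to tell small changes from none.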
